A study of Rattus norvegicus with 8 samples.

Results

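The 9 genes described here belong to growth factor signaling in granulosa cells (GCs), the somatic cells that surround the oocyte in the ovarian follicle, and they were followed through stimulation by follicle stimulating hormone (FSH) or by its downstream kinase. They encode the fibroblast growth factors (FGFs) *Fgf2* and *Fgf7*, the FGF receptors *Fgfr1*, *Fgfr2* and *Fgfr3*, the Sprouty proteins *Spry1*, *Spry2* and *Spry4*, and *Kitlg*, the ligand of the KIT receptor. A row of the array table was taken where its gene symbol was that of a member, and 9 of 9 were found, each with 1 probe set, among 13915 genes with a symbol. GCs of 24 day-old Sprague-Dawley rats were placed in primary culture as 3 separate groups and studied 24 hr. after treatment, with testosterone in every culture as the precursor of estradiol. Control GCs carried a lentivirus for EGFP, a fluorescent protein (n = 2 arrays). FSH-stimulated GCs carried the EGFP virus and were given 100 ng/ml of FSH (n = 3). In the PKA-CQR group GCs carried instead a lentivirus for a mutant catalytic subunit of cAMP-dependent protein kinase (PKA) whose activity is independent of cAMP (n = 3). The mutant kinase has to be made from the virus before it can act, and these GCs did not carry the EGFP virus, so the stimulus cannot be told apart from the time under active kinase and the viral insert.

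FGFs bind receptor tyrosine kinases together with heparan sulfate on the cell surface, and the receptors signal through the docking protein FRS2 and the adaptor GRB2 to RAS and the kinases MEK and ERK. Sprouty proteins are made in response to this cascade and restrain it, so they act as feedback inhibitors. In the ovary FGF7 is known as a product of theca cells that acts on GCs through a splice form of FGFR2, and KIT ligand is known as a product of GCs that acts on the KIT receptor of oocytes and theca cells.

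The values are log2 signals made by the authors with robust multi-array averaging (RMA), which corrects the background, equalizes the distributions of the arrays and summarizes the probes of a set. The median log2 signal of named probe sets was 8.37 to 8.44 per array, arrays within a group correlated with each other at 0.993 to 0.997, and the log2 signal of beta-actin was 1.02 to 1.88 higher from its 3′ than from its 5′ probe set, a difference that widens with RNA degradation. Of 13 GC markers on the arrays, 10 rose with FSH and 8 with PKA-CQR, beside 13.4% and 6.48% of all genes, and none fell with either. *Fshr*, the FSH receptor, was not among the named probe sets. Rise and fall are used where a limma fit to the 8 arrays gave a p under 0.05 after Benjamini-Hochberg adjustment across the 13915 genes. Precision is limited by the small number of arrays. The files hold no detection call, so a low signal cannot be told from background, and signals were compared between arrays and never between genes.

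Of the 9 genes, *Fgfr1* and *Kitlg* rose and *Spry1* fell with FSH, and *Kitlg* rose and *Spry1* fell with PKA-CQR. In the same FSH comparison 13.4% of all genes rose and 12.1% fell, and with PKA-CQR 6.48% rose and 6.02% fell. With 2 and 1 of 9 genes called with FSH and 1 and 1 with PKA-CQR, the counts are near those shares and are no result about the group as a whole. The other 6 genes, *Fgf2*, *Fgf7*, *Fgfr2*, *Fgfr3*, *Spry2* and *Spry4*, passed the test in neither comparison. Between the stimuli 3.95% of all genes were higher and 2.96% were lower in PKA-CQR than in FSH arrays. Of the members 0 passed by limma or by the methods' t-test. At an unadjusted p under 0.05 of limma *Fgfr1* alone did (unadjusted p = 0.0242). The FSH and PKA-CQR values share the same EGFP arrays and are given side by side. Because whole cultures were measured, fewer cells of a type and less RNA per cell cannot be told apart.

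**Figure D1:**
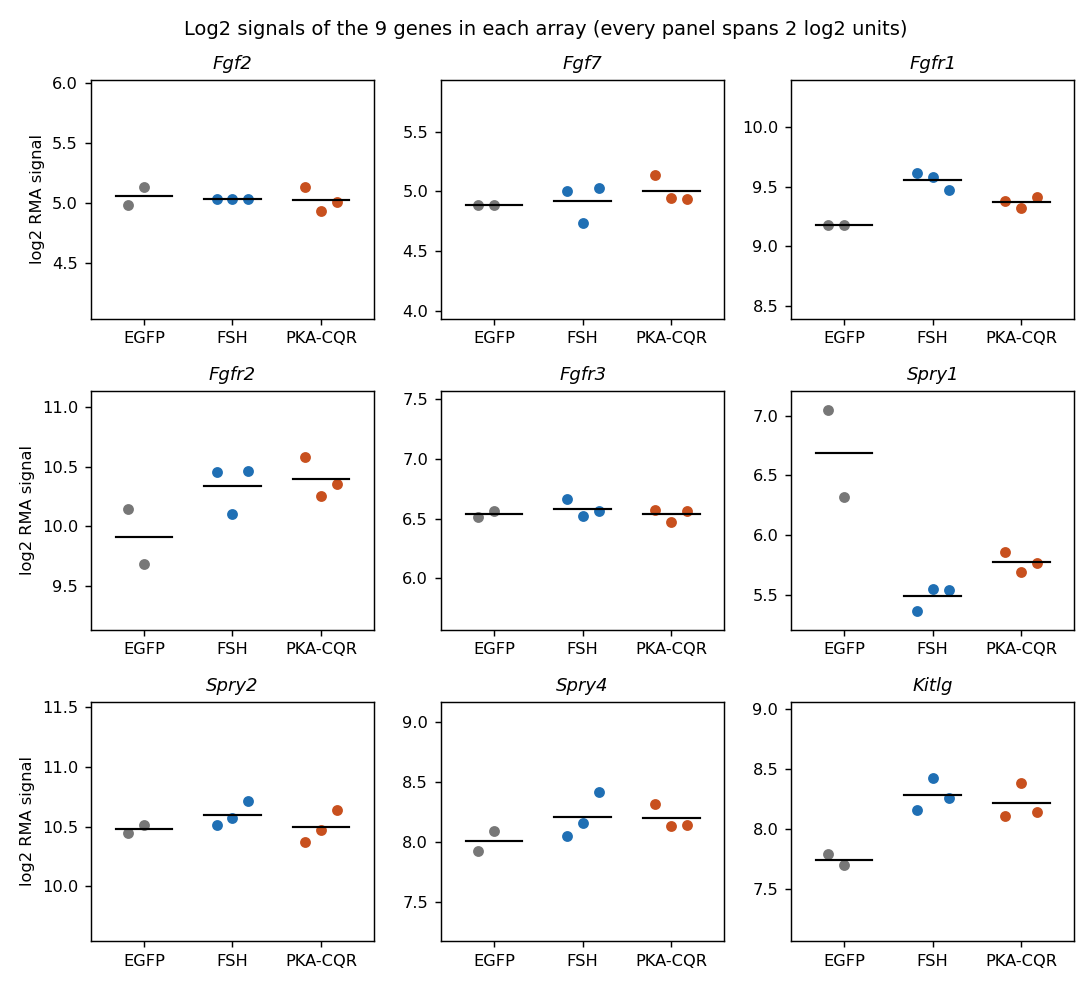
Log2 RMA signals (vertical axis) of the 9 genes in the EGFP, FSH and PKA-CQR arrays, with 1 point per array, placed by replicate number, and a line at the group mean. The EGFP points of *Spry1* lie above all stimulated points and those of *Kitlg* and *Fgfr1* below them, while the points of *Fgf2* and *Fgfr3* overlap between the groups.

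Neither ligand passed the test. *Fgf2*, the basic fibroblast growth factor, had log2 signals of 4.98 and 5.13 in EGFP arrays, 5.03 in each of the 3 FSH arrays, and 5.13, 4.93 and 5.01 in PKA-CQR arrays. The groups overlapped, and the log2 difference from EGFP was -0.03 with FSH (95% confidence interval -0.22 to 0.17, adjusted p = 0.865) and -0.03 with PKA-CQR (-0.22 to 0.16, adjusted p = 0.875). *Fgf7*, the keratinocyte growth factor, ranged from 4.74 to 5.13 over the 8 arrays, and differed from EGFP by 0.04 with FSH (-0.21 to 0.28, adjusted p = 0.849) and by 0.12 with PKA-CQR (-0.13 to 0.36, adjusted p = 0.591). Both signals were low in all groups, and whether the transcripts were detected in these cultures is not known.

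Of the 3 receptors *Fgfr1* alone passed the test, with FSH, and no test compared the receptors with each other. *Fgfr1*, a receptor that binds many FGFs, had log2 signals of 9.18 in both EGFP arrays, 9.61, 9.58 and 9.47 in FSH arrays and 9.38, 9.32 and 9.41 in PKA-CQR arrays. The 3 groups did not overlap, with EGFP lowest and FSH highest. *Fgfr1* rose 1.30-fold with FSH (log2 difference 0.38, SE 0.07, adjusted p = 0.00612, higher in 3 of 3 arrays). With PKA-CQR its log2 difference was 0.19 (95% confidence interval 0.02 to 0.36, unadjusted p = 0.0295, adjusted p = 0.146), which did not pass. The direct difference of PKA-CQR from FSH was -0.18 (-0.33 to -0.03, adjusted p = 0.181), and it passed only when arrays were weighted by their quality (-0.21, adjusted p = 0.0309).

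*Fgfr2*, the receptor that FGF7 uses on epithelial and granulosa cells, had log2 signals of 10.14 and 9.69 in EGFP arrays, 10.45, 10.10 and 10.46 in FSH arrays and 10.58, 10.25 and 10.36 in PKA-CQR arrays. The PKA-CQR arrays were all above the EGFP arrays, and the FSH arrays overlapped them through FSH replicate 2. The log2 difference from EGFP was 0.42 with FSH (SE 0.17, adjusted p = 0.102) and 0.48 with PKA-CQR (SE 0.17, adjusted p = 0.107). With the replicate number as a fixed block both passed, at 0.40 (adjusted p = 0.0156) and 0.46 (adjusted p = 0.0160), and with it as a random block neither did (adjusted p = 0.0520 and 0.0511). Without EGFP replicate 1 the FSH difference was 0.65 (adjusted p = 0.0457) and the PKA-CQR difference 0.71 (adjusted p = 0.0628), and without EGFP replicate 2 they were 0.20 and 0.26, so the size of both differences moved with the EGFP array left out. *Fgfr3* ranged from 6.48 to 6.66 over the 8 arrays and its log2 differences from EGFP were 0.04 with FSH (95% confidence interval -0.13 to 0.21) and -0.004 with PKA-CQR (-0.18 to 0.17).

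*Spry1* gave the largest difference among the 9 genes in both comparisons with EGFP, and the other Sprouty genes did not pass. The Sprouty proteins are inhibitors of receptor tyrosine kinase signaling that are induced by it. *Spry1* had log2 signals of 7.05 and 6.32 in EGFP arrays, 5.36, 5.55 and 5.54 in FSH arrays and 5.86, 5.69 and 5.77 in PKA-CQR arrays. Both EGFP arrays were above all stimulated arrays, they differed from each other by more than the stimulated arrays of a group did, and the PKA-CQR arrays were all above the FSH arrays. *Spry1* fell 2.30-fold with FSH (log2 difference -1.20, SE 0.18, adjusted p = 0.00158) and 1.88-fold with PKA-CQR (-0.91, SE 0.18, adjusted p = 0.0128). Without EGFP replicate 1 the differences were -0.83 (adjusted p = 0.00258) and -0.55 (adjusted p = 0.0362), and without EGFP replicate 2 they were -1.56 and -1.28. The direct difference of PKA-CQR from FSH was 0.29 (95% confidence interval -0.09 to 0.66, adjusted p = 0.438). The mean log2 signal over all arrays was 5.89, below a filter at 6 that was among the alternatives.

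*Spry2* had log2 signals of 10.45 and 10.52 in EGFP arrays, 10.51, 10.57 and 10.72 in FSH arrays and 10.37, 10.47 and 10.64 in PKA-CQR arrays, and the groups overlapped. Its log2 difference from EGFP was 0.12 with FSH (95% confidence interval -0.11 to 0.34, adjusted p = 0.450) and 0.01 with PKA-CQR (-0.21 to 0.24, adjusted p = 0.962). *Spry4* had 7.92 and 8.09 in EGFP arrays, 8.05, 8.16 and 8.42 in FSH arrays and 8.32, 8.14 and 8.14 in PKA-CQR arrays. Its PKA-CQR arrays were above both EGFP arrays, but the difference of 0.19 did not pass (-0.09 to 0.46, adjusted p = 0.408), nor did the difference of 0.20 with FSH (-0.07 to 0.48, adjusted p = 0.272). None of these 4 intervals reaches a fall of the size that *Spry1* showed.

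The signal of smooth muscle and pericyte markers moved with *Spry1*. Of 8 such markers, 4 fell and 0 rose with FSH and 3 fell and 0 rose with PKA-CQR, among them *Tagln* and *Acta2*, which encode proteins of the contractile cytoskeleton. Their summed linear signal was 14729 and 8415 in EGFP arrays, 1498 to 1582 in FSH arrays and 3191 to 3933 in PKA-CQR arrays. It was higher in EGFP replicate 1 than in EGFP replicate 2, as *Spry1* was. *Tagln* alone gave 84.9% and 81.1% of the sum in the EGFP arrays and 39.8% to 72.1% in the stimulated arrays. Without *Tagln* the sum was 2224 and 1594 in EGFP arrays, 842 to 945 in FSH arrays and 1041 to 1173 in PKA-CQR arrays. *Pdgfrb*, *Des* and *Rgs5*, which are markers of pericytes and muscle, did not pass (0.09, 0.06 and 0.10 with FSH and 0.02, 0.007 and 0.05 with PKA-CQR), so the sum does not stand for the whole list. Of 10 theca and stroma markers, FSH arrays had 1 higher and 3 lower and PKA-CQR arrays 1 higher and 1 lower than EGFP. Their summed signal was 4242 and 2888 in EGFP arrays, 1328 to 1593 in FSH arrays and 1952 to 2511 in PKA-CQR arrays. Of 9 endothelial markers 0 rose and 1 fell with FSH and 0 moved with PKA-CQR, and of 11 macrophage and leukocyte markers 3 rose and 1 fell with FSH and 0 moved with PKA-CQR. The shares over all genes, to set beside the counts of each marker list, were 13.4% risen and 12.1% fallen with FSH. With PKA-CQR they were 6.48% and 6.02%. The part of other cell types in the fall of *Spry1* was not tested.

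**Figure D2:**
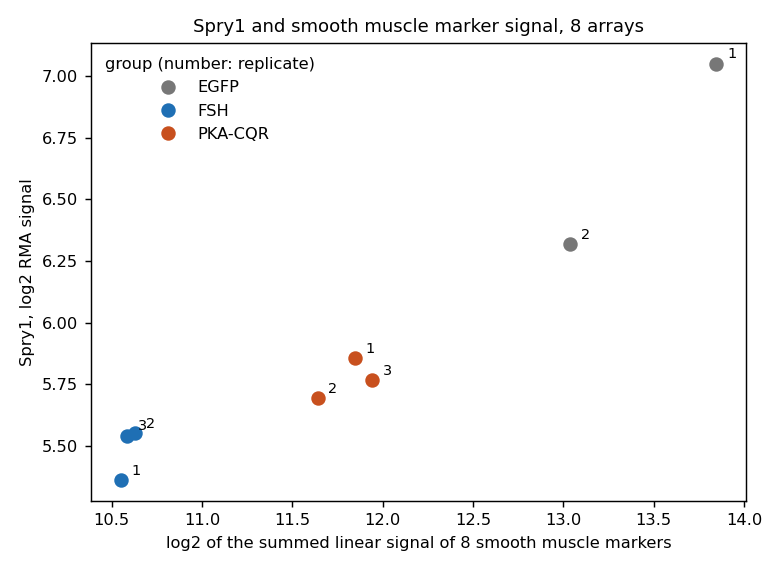
Log2 RMA signal of *Spry1* (vertical axis) against the log2 of the summed linear signal of 8 smooth muscle and pericyte markers (horizontal axis), with 1 point per array and its replicate number. The FSH arrays are lowest on both axes, the PKA-CQR arrays lie above them, and EGFP replicate 1 is highest on both. Most of the summed signal in the EGFP arrays is that of *Tagln* (84.9% and 81.1%).

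*Kitlg* encodes the membrane-bound and secreted growth factor that GCs present to the oocyte. It had log2 signals of 7.79 and 7.69 in EGFP arrays, 8.15, 8.43 and 8.26 in FSH arrays and 8.11, 8.39 and 8.14 in PKA-CQR arrays. All stimulated arrays were above both EGFP arrays, and FSH and PKA-CQR arrays overlapped. *Kitlg* rose 1.46-fold with FSH (log2 difference 0.54, SE 0.11, adjusted p = 0.00778, higher in 3 of 3 arrays) and 1.39-fold with PKA-CQR (0.47, SE 0.11, adjusted p = 0.0274, higher in 3 of 3 arrays). The direct difference of PKA-CQR from FSH was -0.07 (95% confidence interval -0.30 to 0.16). On leaving out EGFP replicate 2 the FSH difference of 0.50 no longer passed (adjusted p = 0.0554). The PKA-CQR difference did not pass on leaving out EGFP replicate 1 or 2 (adjusted p = 0.0973 and 0.136) or PKA-CQR replicate 2 or 3 (adjusted p = 0.0759 and 0.0527). The summed signal of the 13 GC markers was 29765 and 33002 in EGFP arrays, 58420 to 72430 in FSH arrays and 65063 to 67951 in PKA-CQR arrays, so it was also higher with both stimuli. The sum includes *Inha*, *Inhba* and *Cyp19a1*, which the paper reports as induced by both stimuli, so it does not measure the number of GCs. Of the 13 markers, 10 rose with FSH and 8 with PKA-CQR, beside 13.4% and 6.48% of all genes. *Foxl2*, another of them, had log2 signals of 12.94 and 13.17 in EGFP arrays, 12.95 to 13.13 in FSH arrays and 13.24 to 13.36 in PKA-CQR arrays. The part of GC content in the rise of *Kitlg* was not tested. The 1 probe set with the symbol of *Kitlg* does not separate its soluble and membrane-bound splice forms.

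**Figure D3:**
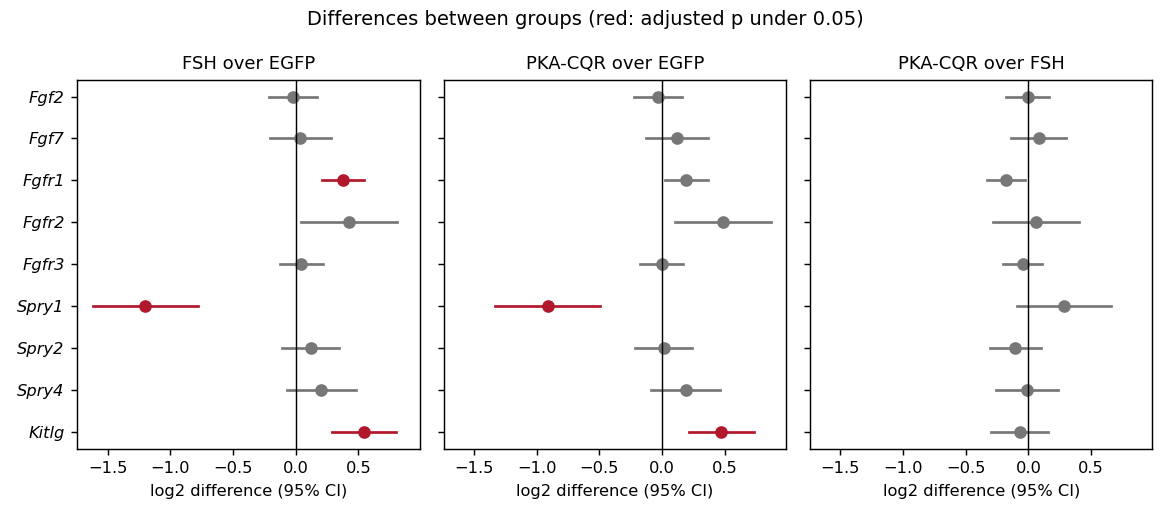
Log2 differences (horizontal axis) of the 9 genes in the 3 comparisons, with points at the estimates of limma and bars for the 95% confidence intervals, red where the adjusted p was under 0.05. *Spry1* lies at -1.20 and -0.91 and *Kitlg* at 0.54 and 0.47 in the comparisons with EGFP, and no gene is red between the stimuli.

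Promoter windows are shown for the gene that fell and the gene that rose in both comparisons with EGFP, and for *Spry2*, a Sprouty gene that did not pass the test, to set it beside *Spry1*. RefSeq windows of the rat build GRCr8, which reach from 250 bases before to 50 bases after the annotated start, were found for 8 of the 9 genes (*Fgfr1* had none). The array files name no genome build, and the coordinates belong to the RefSeq annotation alone. Capitals mark matches, on either strand, to the short cAMP response element TGACG, which CREB can bind after phosphorylation by PKA, or to the ETS core CCGGAA, which ERK-regulated ETS factors can bind. The full element TGACGTCA, the NR5A site AAGGTCA and the TEAD site GGAATG were searched as well, and neither the full element nor either of these 2 sites was found in the 3 windows shown.
*Spry1*, chr2:122485097-122485396, plus strand: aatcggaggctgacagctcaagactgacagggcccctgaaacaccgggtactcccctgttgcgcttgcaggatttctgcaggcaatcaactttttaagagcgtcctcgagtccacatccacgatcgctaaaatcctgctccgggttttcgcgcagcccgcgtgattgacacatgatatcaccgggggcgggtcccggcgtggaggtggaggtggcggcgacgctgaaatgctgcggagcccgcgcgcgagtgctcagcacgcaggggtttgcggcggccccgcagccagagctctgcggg
*Spry2*, chr15:89111877-89112176, minus strand: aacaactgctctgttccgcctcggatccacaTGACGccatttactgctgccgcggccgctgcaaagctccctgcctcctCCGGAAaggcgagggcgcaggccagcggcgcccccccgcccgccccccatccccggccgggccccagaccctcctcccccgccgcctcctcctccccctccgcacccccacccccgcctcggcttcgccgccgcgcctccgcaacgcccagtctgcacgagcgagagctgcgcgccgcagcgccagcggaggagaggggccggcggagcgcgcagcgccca
*Kitlg*, chr7:36782410-36782709, plus strand: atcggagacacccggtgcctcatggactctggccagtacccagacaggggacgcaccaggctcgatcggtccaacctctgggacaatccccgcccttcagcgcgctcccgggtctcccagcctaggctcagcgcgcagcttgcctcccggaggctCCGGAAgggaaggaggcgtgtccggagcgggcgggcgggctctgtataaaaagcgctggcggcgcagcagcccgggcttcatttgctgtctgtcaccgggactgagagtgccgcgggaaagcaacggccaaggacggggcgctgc
The *Spry1* window held none of the 5 sets of letters. The *Spry2* window shown held TGACG from -219 to -215 and CCGGAA from -171 to -166 of the start, and the *Kitlg* window held CCGGAA from -95 to -90. RefSeq gives *Spry2* a second window, chr15:89109793-89110092, which held AAGGTCA from -192 to -186 on the other strand and neither TGACG nor CCGGAA. Of 33469 RefSeq windows of the same length, 21.2% held TGACG, 15% held CCGGAA, 1.83% held TGACGTCA, 4.61% held AAGGTCA and 14.2% held GGAATG, so the matches are common. The G and C content of the 3 windows was 63%, 76.3% and 68%, against a median of 51.7% over all windows. The letters say nothing of binding in these cells.

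Among the 21 FGF ligands on the arrays, including *Fgf2* and *Fgf7*, 4 fell with FSH, 2 fell with PKA-CQR and 0 rose with either, and 16 of the 21 had a mean log2 signal under 6. Over all genes 12.1% fell and 13.4% rose with FSH, and 6.02% fell and 6.48% rose with PKA-CQR. The median log2 difference of the ligands was -0.003 with FSH and -0.01 with PKA-CQR, beside 0.06 and 0.03 over all genes. *Fgf18*, a secreted FGF that signals through the FGF receptors, had log2 signals of 8.14 and 7.87 in EGFP arrays, 5.22, 5.90 and 5.70 in FSH arrays and 7.05, 7.05 and 7.03 in PKA-CQR arrays. The 3 groups did not overlap, with EGFP highest and FSH lowest. *Fgf18* fell 5.27-fold with FSH (log2 difference -2.40, SE 0.18, adjusted p = 2.75e-05) and 1.94-fold with PKA-CQR (-0.96, SE 0.18, adjusted p = 0.00867), and it was 2.71-fold higher with PKA-CQR than with FSH (1.44, SE 0.16, adjusted p = 0.00137). Leaving out EGFP replicate 1 ended the PKA-CQR call (-0.83, adjusted p = 0.0817). *Fgf13*, an FGF homologue that stays inside the cell, fell 2.07-fold with FSH (-1.05, SE 0.17, adjusted p = 0.00198) and 1.66-fold with PKA-CQR (-0.73, SE 0.17, adjusted p = 0.0225), the latter call ending on leaving out EGFP replicate 1 or PKA-CQR replicate 3 (adjusted p = 0.183 and 0.0602). The other 2 ligands that fell with FSH, named after their values were seen, were *Fgf12*, a further intracellular homologue (-0.58, adjusted p = 0.0281), and *Fgf21*, an endocrine FGF (-0.77, adjusted p = 0.0283). *Fgf12* had a mean log2 signal of 4.16, which cannot be told from background. It was no longer called without EGFP replicate 1 or 2 or FSH replicate 1 or 2. *Fgf21* was not called without EGFP replicate 2 (-0.35, adjusted p = 0.117) or without FSH replicate 1 or 3, and without EGFP replicate 1 its difference was -1.20.

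Of 9 receptors and co-receptors on the arrays, *Fgfr1* rose and *Flrt3*, a membrane protein that binds FGF receptors, fell with FSH, and 0 passed with PKA-CQR. The median log2 difference was 0.06 with FSH and 0.10 with PKA-CQR. The shares over all genes were 13.4% risen and 12.1% fallen with FSH, and 6.48% and 6.02% with PKA-CQR. *Flrt3* fell 1.31-fold (-0.39, SE 0.10, adjusted p = 0.0249), and the call was lost without EGFP replicate 1 or 2 or FSH replicate 2 or 3 (adjusted p from 0.0601 to 0.147). Its log2 difference with PKA-CQR was 0.05, and it was 1.36-fold higher with PKA-CQR than with FSH (0.44, adjusted p = 0.0261). *Fgfr4* and *Fgfrl1*, a receptor without a kinase domain, differed from EGFP by 0.15 and 0.20 with FSH and by 0.10 and 0.19 with PKA-CQR, and neither passed. The mean log2 signal of *Fgfr4* was 4.16, which cannot be told from background.

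Of the 7 feedback inhibitors on the arrays only *Spry1* passed, and it fell with both stimuli. The median log2 difference of the 7 was 0.12 with FSH and 0.10 with PKA-CQR. Over all genes 12.1% fell and 13.4% rose with FSH, and 6.02% fell and 6.48% rose with PKA-CQR. *Dusp6*, the phosphatase that inactivates ERK and is a classical readout of FGF signaling, had a log2 difference of -0.09 with FSH (95% confidence interval -0.44 to 0.26) and 0.10 with PKA-CQR (-0.24 to 0.45). *Spred3*, a Sprouty-related protein, differed by 0.22 and 0.15 and did not pass.

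Of 23 adaptors and kinases from the receptors to ERK, FSH gave 2 that rose and 2 that fell and PKA-CQR 1 that fell, with a median log2 difference of -0.07 and -0.05. The shares of all genes were 13.4% risen and 12.1% fallen with FSH, and 6.48% and 6.02% with PKA-CQR. *Gab1*, a docking protein of receptor tyrosine kinases, had log2 signals of 10.97 and 10.88 in EGFP arrays and lay between 10.40 and 10.52 in the 6 stimulated arrays. It fell 1.38-fold with FSH (-0.46, SE 0.07, adjusted p = 0.00159) and 1.38-fold with PKA-CQR (-0.47, SE 0.07, adjusted p = 0.00345). *Rasa1*, a GTPase-activating protein that turns RAS off, fell 2.11-fold with FSH (-1.08, SE 0.25, adjusted p = 0.0122), but not without EGFP replicate 1 (-0.86, adjusted p = 0.105). Its difference with PKA-CQR was -0.78 (adjusted p = 0.0790, and adjusted p = 0.0453 at -0.60 with the fixed replicate block). *Shc1*, an adaptor, and *Map2k1*, the kinase MEK1, rose with FSH by 0.31 (adjusted p = 0.0145) and 0.31 (adjusted p = 0.0183) on the log2 scale. *Shc1* was not called without EGFP replicate 1 (adjusted p = 0.0983) or FSH replicate 2 (adjusted p = 0.0509), nor *Map2k1* without EGFP replicate 2 (adjusted p = 0.112) or FSH replicate 2 (adjusted p = 0.0633).

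Of 16 transcripts that ERK is known to induce, FSH gave 3 that rose and 3 that fell, one of them *Spry1*, and PKA-CQR 2 of each, beside 13.4% and 12.1% of all genes with FSH and 6.48% and 6.02% with PKA-CQR, with a median log2 difference of 0.06 and 0.05. *Dusp5*, a nuclear ERK phosphatase, rose by 0.56 with FSH (SE 0.12, adjusted p = 0.00844) and by 0.44 with PKA-CQR (SE 0.12, adjusted p = 0.0448) on the log2 scale. Leaving out EGFP replicate 1 ended the first call (adjusted p = 0.0675), and the second was lost without 6 of the 8 arrays, all but FSH replicates 1 and 2. *Fosl1*, a subunit of the AP-1 factor, rose by 0.45 with both (adjusted p = 0.00918 and adjusted p = 0.0179), the first not without EGFP replicate 1 (adjusted p = 0.0727) and the second not without EGFP replicate 1 or 2 or PKA-CQR replicate 2 or 3 (adjusted p from 0.0518 to 0.130). *Ier3*, an immediate early gene, rose by 0.56 with FSH (adjusted p = 0.0209), though not without EGFP replicate 2 (adjusted p = 0.133) or FSH replicate 2 (adjusted p = 0.0637), and its difference with PKA-CQR was 0.08. *Phlda1* fell with both, by 0.71 (adjusted p = 0.00205) and by 0.53 (adjusted p = 0.0174), the second not without EGFP replicate 1 (adjusted p = 0.140) or PKA-CQR replicate 1 or 2. *Etv1*, an ETS factor, fell by 0.72 with FSH (adjusted p = 0.00301), while its difference with PKA-CQR was -0.16 and it was higher with PKA-CQR than with FSH (0.57, adjusted p = 0.0195). The related *Etv4* and *Etv5*, common markers of FGF signaling, differed by 0.02 and 0.17 with FSH and by 0.0002 and 0.11 with PKA-CQR. The mean log2 signal of *Etv4* was 4.75, which cannot be told from background.

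**Figure D4:**
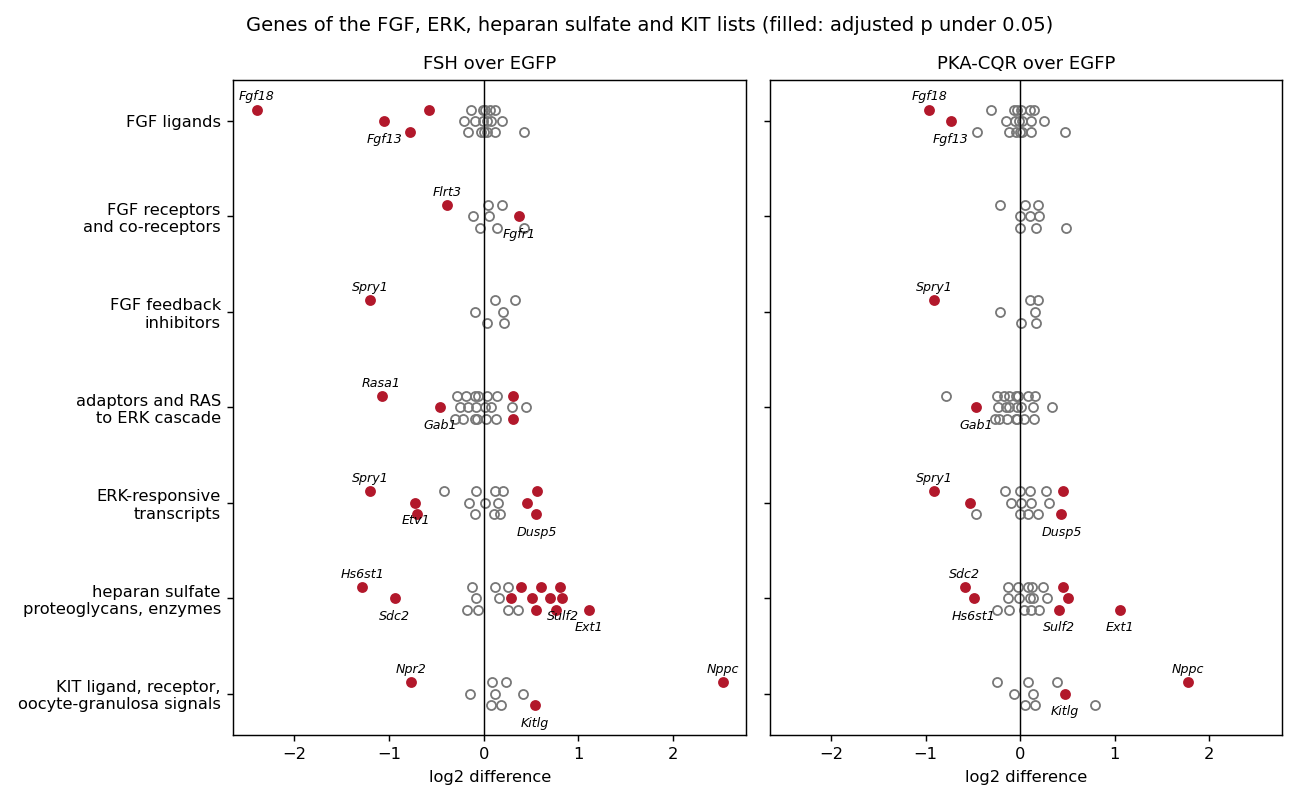
Log2 differences (horizontal axis) from EGFP with FSH and with PKA-CQR for the genes of 7 lists around FGF and KIT signaling (rows), with 1 point per gene, filled where the adjusted p of limma was under 0.05. In the row of heparan sulfate genes 10 filled points lie to the right and 2 to the left with FSH, and in the row of ligands *Fgf18* lies farthest to the left at -2.40.

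Heparan sulfate is the polysaccharide that FGFs need to engage their receptors. Of 21 of its proteoglycans and enzymes on the arrays, 10 rose with FSH and 4 with PKA-CQR, beside 13.4% and 6.48% of all genes, while 2 fell with each, beside 12.1% and 6.02%. The median log2 difference was 0.29 with FSH and 0.10 with PKA-CQR, beside 0.06 and 0.03 over all genes. *Ext1*, a polymerase of the chain, had log2 signals of 12.18 and 12.26 in EGFP arrays, 13.43, 13.30 and 13.27 in FSH arrays and 13.19, 13.27 and 13.37 in PKA-CQR arrays. The stimulated groups overlapped each other and lay above EGFP, and *Ext1* rose 2.16-fold with FSH (1.11, SE 0.09, adjusted p = 3.35e-05) and 2.08-fold with PKA-CQR (1.05, SE 0.09, adjusted p = 0.000162). *Hs6st1*, an enzyme that adds 6-O-sulfate to the chain, had log2 signals of 10.88 and 10.92 in EGFP arrays, 9.46, 9.78 and 9.61 in FSH arrays and 10.35, 10.38 and 10.51 in PKA-CQR arrays. It fell 2.43-fold with FSH (-1.28, SE 0.10, adjusted p = 4.28e-05) and 1.40-fold with PKA-CQR (-0.49, SE 0.10, adjusted p = 0.0158). The PKA-CQR call was lost without either EGFP array or without PKA-CQR replicate 1 or 2 (adjusted p from 0.0568 to 0.0829).

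*Sulf2*, a sulfatase that removes 6-O-sulfate outside the cell, had log2 signals of 12.00 and 12.22 in EGFP arrays, 12.87, 12.95 and 13.00 in FSH arrays and 12.42, 12.55 and 12.61 in PKA-CQR arrays. It rose 1.78-fold with FSH (0.83, SE 0.09, adjusted p = 0.000298) and 1.33-fold with PKA-CQR (0.41, SE 0.09, adjusted p = 0.0232), the second not without EGFP replicate 1 (adjusted p = 0.185) or PKA-CQR replicate 2 or 3. *Gpc1*, the core protein glypican 1, rose 1.62-fold (0.70, adjusted p = 0.000160) and 1.42-fold (0.51, adjusted p = 0.00235). *Sdc2*, the core protein syndecan 2, fell by 0.94 with FSH (adjusted p = 0.00123) and by 0.59 with PKA-CQR (adjusted p = 0.0249) on the log2 scale, the second not without EGFP replicate 1 (adjusted p = 0.185) or PKA-CQR replicate 2 or 3. The fourth gene that rose with PKA-CQR, named after its values were seen, was *Hs2st1*, a 2-O-sulfotransferase (0.45, adjusted p = 0.0215), which was not called without EGFP replicate 2 or PKA-CQR replicate 1 or 3.

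Between the stimuli, 1 of the 21 heparan sulfate genes was higher and 5 were lower with PKA-CQR than with FSH, beside 3.95% and 2.96% of all genes. *Hs6st1* was 1.74-fold higher with PKA-CQR (0.80, SE 0.09, adjusted p = 0.00167) and *Sulf2* 1.34-fold lower (-0.42, SE 0.08, adjusted p = 0.0224). The other 4 that were lower were named after their values were seen. They were *Gpc3*, the core protein glypican 3 (-0.93, adjusted p = 0.000572), *Hs3st1*, a 3-O-sulfotransferase (-0.56, adjusted p = 0.0117), and the syndecans *Sdc3* (-0.60, adjusted p = 0.0140) and *Sdc4* (-0.46, adjusted p = 0.0377). The calls of *Sulf2* and *Sdc4* were each lost on leaving out FSH replicate 2 or 3 or PKA-CQR replicate 1 or 2, and that of *Sdc4* also without PKA-CQR replicate 3. That of *Sdc3* was lost without FSH replicate 2 or PKA-CQR replicate 1 or 3, and that of *Hs3st1* without PKA-CQR replicate 1 (adjusted p = 0.0600).

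**Figure D5:**
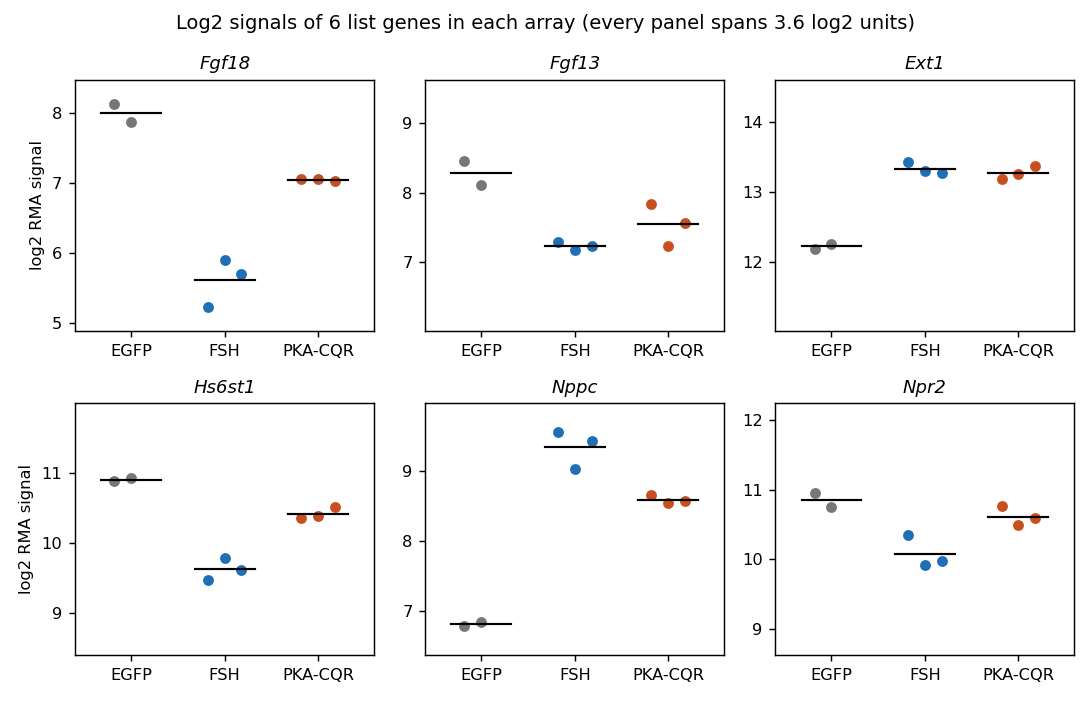
Log2 RMA signals (vertical axis) of *Fgf18*, *Fgf13*, *Ext1*, *Hs6st1*, *Nppc* and *Npr2* in the EGFP, FSH and PKA-CQR arrays, with 1 point per array and a line at the group mean. The PKA-CQR points of *Fgf18*, *Hs6st1* and *Nppc* lie between those of EGFP and FSH, and those of *Ext1* overlap the FSH points.

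Of 10 genes of KIT and oocyte-granulosa signaling, 2 rose with each stimulus and 1 fell with FSH, with a median log2 difference of 0.15 in both. Beside *Kitlg* the gene that rose was *Nppc*, the C-type natriuretic peptide precursor by which GCs hold the oocyte in meiotic arrest. *Nppc* had log2 signals of 6.79 and 6.85 in EGFP arrays, 9.56, 9.03 and 9.44 in FSH arrays and 8.66, 8.54 and 8.57 in PKA-CQR arrays, and the groups did not overlap. It rose 5.76-fold with FSH (2.53, SE 0.14, adjusted p = 6.06e-06) and 3.43-fold with PKA-CQR (1.78, SE 0.14, adjusted p = 0.000141), and was 1.68-fold lower with PKA-CQR than with FSH (-0.75, adjusted p = 0.00917). *Npr2*, its receptor, had log2 signals of 10.95 and 10.76 in EGFP arrays, 10.36, 9.91 and 9.98 in FSH arrays and 10.76, 10.49 and 10.59 in PKA-CQR arrays. It fell 1.71-fold with FSH (-0.77, SE 0.14, adjusted p = 0.00458), its difference with PKA-CQR was -0.24 (adjusted p = 0.375), and it was higher with PKA-CQR than with FSH (0.53, adjusted p = 0.0450). That last call was lost without 7 of the 8 arrays, all but FSH replicate 1. *Kit*, the receptor of KIT ligand, ranged from 5.19 to 5.42 over the 8 arrays and did not pass (0.12 with FSH and 0.13 with PKA-CQR).

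The signals of the oocyte transcripts *Gdf9* and *Zp3* varied between arrays of the same group. *Gdf9*, a growth factor known as a product of the oocyte, had log2 signals of 7.23 and 5.97 in EGFP arrays, 7.63, 7.23 and 6.18 in FSH arrays and 7.50, 8.22 and 6.45 in PKA-CQR arrays, and *Zp3*, a zona pellucida protein, had 6.30 and 4.86, 6.38, 6.03 and 5.02, and 6.58, 7.44 and 5.71. Both were lowest in replicate 3 of the stimulated groups and in EGFP replicate 2, and neither passed the test in any comparison. Of 6 oocyte markers on the arrays 0 rose and 1, *Zp2*, fell with FSH and 0 moved with PKA-CQR. *Zp2* varied less within groups. It had log2 signals of 9.08 and 9.11 in EGFP arrays, 8.59, 8.44 and 8.42 in FSH arrays and 9.10, 9.13 and 8.96 in PKA-CQR arrays. The share of all genes that fell with FSH was 12.1%. *Kitlg* had its highest signal of each stimulated group in replicate 2 and its lowest in replicate 1. *Gdf9* and *Zp3* were highest in replicate 1 of the FSH arrays, but in replicate 2 of the PKA-CQR arrays, as *Kitlg* was. In EGFP arrays *Kitlg*, *Gdf9* and *Zp3* were all higher in replicate 1. The part of oocyte content in the signal of *Kitlg* was not tested.

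The genes whose signals over the 8 arrays were most like those of the 3 changed members are given as a description, since arrays of 3 groups that differ give high correlations to many genes. For *Fgfr1* they were *Sec14l1* (Pearson's r = 0.984), *Tnfrsf1b* (0.981) and *Abhd4* (0.978), and 412 of 13827 genes correlated above 0.9. For *Spry1* they were *C1qtnf7* (0.997), *Lrrc29* (0.996) and *Rab32* (0.996), with 611 genes above 0.9. For *Kitlg* they were *Nop56* (0.990), *Slc25a25* (0.987) and *Ruvbl2* (0.984), with 217 genes above 0.9. Of these, *C1qtnf7* and *Rab32* fell with both stimuli, and *Tnfrsf1b* and *Slc25a25* rose with both. The signals of *Lrrc29* and *Tnfrsf1b* were low, with group means of 4.68 to 4.91 and 4.18 to 4.59, and cannot be told from background. Among the members themselves *Spry1* ran opposite to *Fgfr1* (r = -0.85) and to *Kitlg* (r = -0.79), and *Fgfr1* ran with *Kitlg* (r = 0.73), over the same 8 arrays.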

How the data were processed

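Total RNA of GC cultures was labeled and hybridized to Affymetrix rat genome arrays (8 arrays in 3 groups, as the labels give them). Log2 signals from RMA were deposited by the authors, and the RMA version and chip definition are not given in the sources used here. The methods name MAS5.0 values, which were not used here. Of 31099 probe sets, 57 are controls and 13915 carry a gene symbol, 1 per gene. The 111320 values of the authors' second table are the same as those of the first. The platform annotation gave each member's probe set the same single symbol. Whether any of the 17184 probe sets without a gene symbol measures a member was not checked.

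The test between groups was that of limma 3.58.1 under R 4.3.3 (lmFit and eBayes over all 8 arrays, Benjamini-Hochberg adjustment over the 13915 genes, adjusted p under 0.05), after a test of the code on simulated data. Named are the 9 members, in each of 7 pathway lists the 2 genes that rose most and the 2 that fell most over EGFP with each stimulus among those called, and the 3 genes most correlated with each called member. Genes said to be named after their values were seen lie outside this rule, and so do genes that did not pass and cell type markers (6 lists) named beside a list's counts. Members, lists and tests were chosen with earlier results of these data known. Alternatives were median centring, a second quantile normalization, minimum mean signals, inclusion of unnamed probe sets, omission of each array, a fixed or random block for the replicate number, eBayes with a trend or robust, a fit of 2 groups alone, weighted arrays, the methods' t-test, a beta-actin covariate and fold changes of mean linear signals. A replicate number was read as a culture group, since 3 GC groups were each given the treatments according to the methods. Deviations of same-numbered FSH and PKA-CQR arrays correlated at 0.23, 0.44 and 0.62, and those of EGFP replicate 1 with FSH and PKA-CQR replicate 1 at 0.42 and 0.13. Those of EGFP replicate 2 correlated with its namesakes at -0.27 and -0.32, and with FSH and PKA-CQR replicate 3 at 0.52 and 0.41. With 2 EGFP arrays the deviations of each are those of the other with the sign reversed, so their correlations are not separate evidence. The labels and the study's own use of its controls place the 2 EGFP arrays in culture groups 1 and 2. The array code of EGFP replicate 2 stands beside those of the replicate 3 arrays, so it was also placed there in a second block. Promoter letters came from RefSeq (GRCr8), motifs were found with Python 3.11.15, and figures were drawn with matplotlib 3.10.9.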

Additional observations from a re-analysis of the deposited data

Results flagged for a closer look

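The effects of FSH and PKA-CQR over the same EGFP arrays differed, by the direct limma test between the stimuli, for 11 of the genes named around FGF and KIT signaling and for none of the 9 members. *Gpc3*, *Hs3st1*, *Sdc3* and *Sdc4* were named only after their values were seen. The rest were named for a call against EGFP, which used the same stimulated arrays. The 11 are thus a selected set, and their number is not a rate. Among all genes this test called 3.95% as raised and 2.96% as reduced in PKA-CQR arrays relative to FSH arrays. Higher with PKA-CQR than with FSH were *Fgf18* by 1.44 on the log2 scale (adjusted p = 0.00137), *Hs6st1* by 0.80 (adjusted p = 0.00167), *Etv1* by 0.57 (adjusted p = 0.0195), *Npr2* by 0.53 (adjusted p = 0.0450) and *Flrt3* by 0.44 (adjusted p = 0.0261). Lower with PKA-CQR were *Gpc3* at -0.93 (adjusted p = 0.000572), *Nppc* at -0.75 (adjusted p = 0.00917), *Sdc3* at -0.60 (adjusted p = 0.0140), *Hs3st1* at -0.56 (adjusted p = 0.0117), *Sdc4* at -0.46 (adjusted p = 0.0377) and *Sulf2* at -0.42 (adjusted p = 0.0224). All 5 genes of the first group had been named for a fall with FSH, so that shared fall is no further result. In each direction the 3 arrays of a stimulus did not overlap those of the other, which a call by the same test makes likely. The calls of *Fgf18*, *Hs6st1*, *Gpc3* and *Nppc* held without each array in turn, and the other 7 did not: *Etv1* was lost without FSH replicate 2 or 3 or any PKA-CQR array (adjusted p from 0.0530 to 0.0875) and *Flrt3* without the same 5 arrays (adjusted p from 0.0650 to 0.107). By the methods' t-test with Benjamini-Hochberg adjustment none of the 11 was called. That test gave *Fgf18* an adjusted p of 0.0777, *Hs6st1* 0.0723, *Gpc3* 0.0518 and *Nppc* 0.145.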

How the results depend on the processing

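Of the 9 members, *Fgfr1* with FSH and *Spry1* and *Kitlg* with both stimuli were called, and none of these differences changed direction under any alternative. The methods' t-test, after Benjamini-Hochberg adjustment or at its own threshold, called 0 members in each comparison, and filters at a mean log2 of 6 or 8 removed *Spry1* and left 0 lower. With the replicate number as a fixed block, in either placing of EGFP replicate 2, *Fgfr2* joined and made 3 members higher with FSH and 2 with PKA-CQR, and no other member's call changed. With a random block the counts were those without a block, 2 and 1. Of the other genes named, *Rasa1* with PKA-CQR and *Sdc2* between the stimuli gained a call with either fixed block, *Fgf12* with PKA-CQR with the placing by the labels alone, *Fgf12* between the stimuli with EGFP replicate 2 in culture group 3 (0.28, adjusted p = 0.0394), *Sdc3* with FSH with the placing by the labels or the random block, and *Ier3* between the stimuli with the second placing (-0.48, adjusted p = 0.0175) or the random block (adjusted p = 0.0399). Either fixed block also gave 1 FGF ligand higher with each stimulus where there was none. Array weights gave 1 member, *Fgfr1*, lower with PKA-CQR than with FSH. Leaving out 1 array gave 1 to 3 members higher with FSH and 0 to 1 with PKA-CQR. No scaling moved the median of all genes by over 0.1.

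Log2 differences near 0 changed sign. For PKA-CQR over EGFP these were *Fgfr3* with median centring (0.0093) or the second placing in the block (0.026), *Spry2* with the block (-0.053), a random block (-0.0069), array weights (-0.0036) or the beta-actin covariate (-0.052), and *Ier3* (-0.014) and *Sdc4* (-0.033) with the second placing. For FSH over EGFP, *Fgf7* was -0.091 with array weights. For PKA-CQR over FSH, *Fgf2* was 0.012 after quantile normalization, *Spry4* and *Gab1* were 0.040 and 0.0091 with array weights, and *Spry4* and *Fosl1* were 0.010 and 0.0079 with the beta-actin covariate. With 1 array left out, *Fgf2* ranged from -0.099 to 0.047 with FSH, from -0.11 to 0.040 with PKA-CQR and from -0.061 to 0.040 between them, and *Fgf7* from -0.016 to 0.13 with FSH and from -0.012 to 0.14 between them. With PKA-CQR the ranges were -0.026 to 0.025 for *Fgfr3*, -0.061 to 0.074 for *Spry2*, -0.025 to 0.18 for *Ier3*, -0.35 to 0.038 for *Etv1* and -0.083 to 0.16 for *Sdc4*. Between the stimuli they were -0.059 to 0.13 for *Fgfr2*, -0.093 to 0.092 for *Spry4*, -0.16 to 0.0037 for *Kitlg*, -0.032 to 0.029 for *Gab1* and -0.057 to 0.071 for *Fosl1*.

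The fit called 1868 genes higher and 1680 lower with FSH, 902 and 837 with PKA-CQR, and 550 and 412 between the stimuli. The methods' t-test with adjustment gave 422 and 376, 39 and 14, and 71 and 47. On leaving out EGFP replicate 1 the counts were 1182 and 1090 with FSH and 491 and 360 with PKA-CQR, and on leaving out PKA-CQR replicate 1 they were 296 and 163 between the stimuli. Every probe set gave 2826 and 3201 with FSH, array weights gave 1043 and 998 between the stimuli, and the beta-actin covariate gave 1368 higher with PKA-CQR. The cause was not tested. Each member has 1 probe set that carries its symbol, and no other probe set was tried. With 2 EGFP arrays and no detection call the members of low signal are the least certain.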
